A study of Mus musculus with 6 samples.

Results

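The genes described here are 42 genes of the cell division cycle: 5 cyclins and kinases of the G1 phase, 16 genes of the G1/S transition and of DNA replication, called S phase genes below, and 21 mitotic genes. They were chosen by name, with earlier results of these data known, and taken as the array rows that carry these symbols. Of the 42 genes, 41 had a named row among the 24479 gene rows of the arrays, namely all 5 G1 genes, all 16 S phase genes and 20 of the 21 mitotic genes, and the remaining gene is not analysed here. Their expression was measured in liver sinusoidal endothelial cells (LSECs), the fenestrated endothelium that lines the liver capillaries, of Lyve-1-KO mice (B6.129S1-Lyve1tm1Lhua/J, on a C57BL/6 background, with a targeted Lyve1 gene in all tissues) and of Ctrl mice (C57BL/6J). Each group had 3 samples, each sample was a pool of LSECs from 3 mice, and each pool was hybridised to 1 Affymetrix MoGene-2_0-st array. LSECs were obtained by collagenase digestion, a density gradient and magnetic sorting for CD146, an endothelial surface protein, and neither group was treated. The methods give an age of 6 to 18 weeks for mice used in characterization, without stating the age or sex of the pooled mice. They list both littermates and purchased wild-type mice as controls, so where the Ctrl pools came from purchased mice, origin and genotype cannot be told apart.

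As background, D-type cyclins with the kinases Cdk4 and Cdk6 start the cell cycle in G1 by phosphorylating the retinoblastoma protein, which releases E2F transcription factors. E2F factors switch on S phase genes, among them the loaders and subunits of the MCM helicase, which opens DNA at replication origins. Mitotic genes follow later, when the transcription factor Foxm1 and the MuvB complex act at promoters that carry a CHR element next to CCAAT boxes bound by NF-Y. In resting cells, the same CHR and E2F sites are held silent by the DREAM complex. LSECs of the adult liver rarely divide, but enter the cell cycle after partial hepatectomy, and many replication proteins remain present at some level in cells that do not divide.

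The division into S phase and mitotic genes was visible in promoter sequence, which is shown because the array values of these classes are compared below. Sequences were RefSeq promoters of build GRCm38.p6 from 250 bases before to 50 bases after each transcription start, and motifs were searched on both strands. They were available for 15 of the 20 mitotic, 13 of the 16 S phase and 3 of the 5 G1 genes. In the promoters of 4 mitotic genes below, capitals mark the CHR element (TTTGAA, or TTCAAA on the other strand) and the NF-Y box (CCAAT, or ATTGG). Each stretch of 100 bases runs 5′ to 3′ on the strand of the gene: Cdc20 at chr4:118437324-118437423 (minus strand), Kif11 at chr19:37376302-37376401 (plus), Top2a at chr11:99024170-99024269 (minus) and Kif23 at chr9:61946780-61946879 (minus).
Cdc20: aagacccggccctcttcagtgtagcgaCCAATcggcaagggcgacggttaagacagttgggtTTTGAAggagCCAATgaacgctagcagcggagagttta
Kif11: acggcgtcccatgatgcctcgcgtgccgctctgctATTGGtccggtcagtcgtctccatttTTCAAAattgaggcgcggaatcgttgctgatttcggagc
Top2a: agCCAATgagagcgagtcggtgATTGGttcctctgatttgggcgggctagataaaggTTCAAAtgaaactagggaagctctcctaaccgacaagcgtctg
Kif23: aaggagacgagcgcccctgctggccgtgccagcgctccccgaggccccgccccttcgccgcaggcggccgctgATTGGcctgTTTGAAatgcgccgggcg

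In the promoters of 3 S phase genes, capitals mark the E2F site, searched as TTTCCCGC, TTTGGCGC, TTTCGCGC and TTTGCCGC and found here as GCGGGAAA, the other strand of the first form. These genes are shown because Cdc6, Cdk2 and Mcm7 were among the 5 S phase genes with the smallest p-values between the groups and held the site. The promoters of the other 2, Pcna and Rfc4, did not hold it. The stretches are Cdc6 at chr11:98907967-98908066 (plus strand), Cdk2 at chr10:128705138-128705237 (minus) and Mcm7 at chr5:138171995-138172094 (minus), each ending upstream of the transcription start, and for Mcm7 upstream of the first listed of its 2 starts.
Cdc6: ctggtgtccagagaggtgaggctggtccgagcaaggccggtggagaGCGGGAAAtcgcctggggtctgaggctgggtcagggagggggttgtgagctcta
Cdk2: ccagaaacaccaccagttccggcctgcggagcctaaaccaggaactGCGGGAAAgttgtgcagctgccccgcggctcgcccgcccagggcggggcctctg
Mcm7: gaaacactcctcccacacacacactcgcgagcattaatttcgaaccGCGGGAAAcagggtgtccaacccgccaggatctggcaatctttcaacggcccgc

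A CHR element lay in 11 of 15 mitotic promoters (73.3%) and in 2 of 13 S phase promoters (15.4%), while 20.2% of all 27025 genes with a promoter held it. The E2F site ran the other way. It was found in 7 of 13 S phase promoters (53.8%), those of Cdc6, Cdk2, Mcm7, Mcm6, Mcm3, Cdt1 and Mcm5, in 1 of 15 mitotic promoters (6.67%), that of Cdk1, and in 2.6% of all genes. The NF-Y box was frequent in both classes, with 86.7% of mitotic and 61.5% of S phase promoters against 41.1% of all genes. None of the 3 G1 promoters held a CHR element or an E2F site. These matches describe the letters of a 300-base window and are not binding data.

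**Figure D1:**
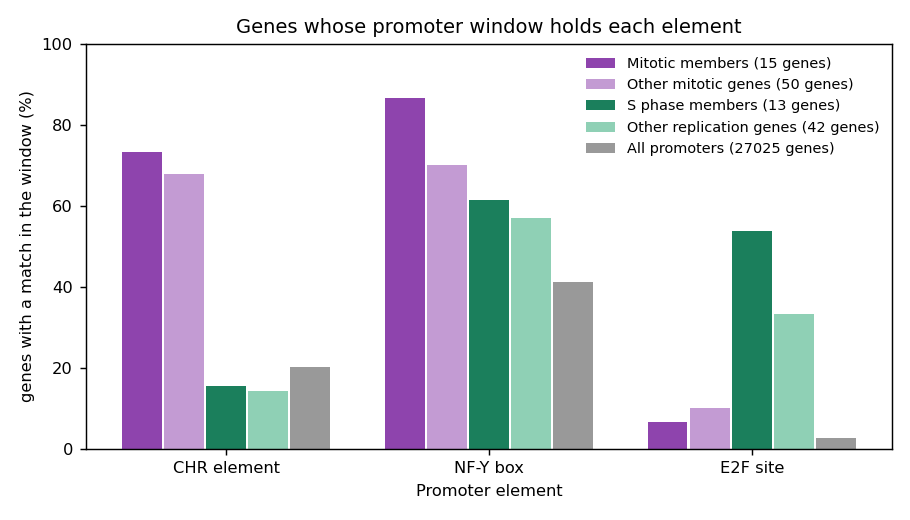
Share of genes (percent, vertical axis) whose promoter window holds a CHR element, an NF-Y box or an E2F site, for mitotic and S phase genes, further genes of both kinds and all genes. The CHR element is most frequent in the mitotic class (73.3%) and the E2F site in the S phase class (53.8%), against 20.2% and 2.6% of all genes.

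All levels below are log2 values after quantile normalization, which gives each array the same distribution, so that the median is 5.04 and the values run between 2.92 and 13.87 on every array. Correlations over all rows were 0.9934 to 0.9963 within groups and 0.9912 to 0.9955 between them. A difference is the mean of the 3 arrays labelled Lyve-1-KO minus that of the 3 Ctrl arrays, on the log2 scale, with the standard error (SE) and p-values of limma adjusted by Benjamini-Hochberg over all 24479 rows. The targeted gene itself did not separate the groups. Lyve1 had 12.85, 12.88 and 12.83 on the arrays labelled Lyve-1-KO, against 12.78, 12.69 and 12.84 on the Ctrl arrays, a difference of 0.08 (SE 0.06, adjusted p = 0.663 by limma). Where its probes lie relative to the targeted part of the gene is not analysed here, so this row does not check the labels, and the groups are named by their labels throughout. The labels of the extraction step name retina, but the 20 LSEC markers averaged between 12.59 and 12.64 on all 6 arrays and 9 retina markers between 3.97 and 4.10. The LSEC markers were thus high and the retina markers low on every array. Pools are labelled as biological replicates. In bulk arrays, fewer dividing cells and less RNA per cell cannot be told apart.

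None of the 41 cell cycle genes passed an adjusted p of 0.05, and of all 24479 rows 1 did (0.00409%), or 0 with the replicate number as a block. At an unadjusted p under 0.05, 4 of the 41 genes were higher (9.76%) and 4 lower (9.76%) on the arrays labelled Lyve-1-KO, against 5.87% higher and 5.33% lower among all rows. The higher ones were Pcna, Cdk2, Cenpf and Cdc20, and the lower ones Cdk4, Cdc6, Rfc4 and Mcm7. In 4 genes (Pcna, Cdk2, Cenpf, Cdc20) all 3 arrays labelled Lyve-1-KO lay above all Ctrl arrays, and in 2 (Cdk4, Rfc4) all lay below, where 8.71% and 8.73% of all rows do the same. Of these shares without overlap, the one above lay near that of all rows and the one below was smaller. The unadjusted shares were larger than those of all rows but rest on 4 genes each, and no test of the set was run. Cdk4 and Pcna had an unadjusted p under 0.05 in every fit run, and the other 6 genes lost it in at least 1. By direction, 18 differences were above 0 and 23 below.

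**Figure D2:**
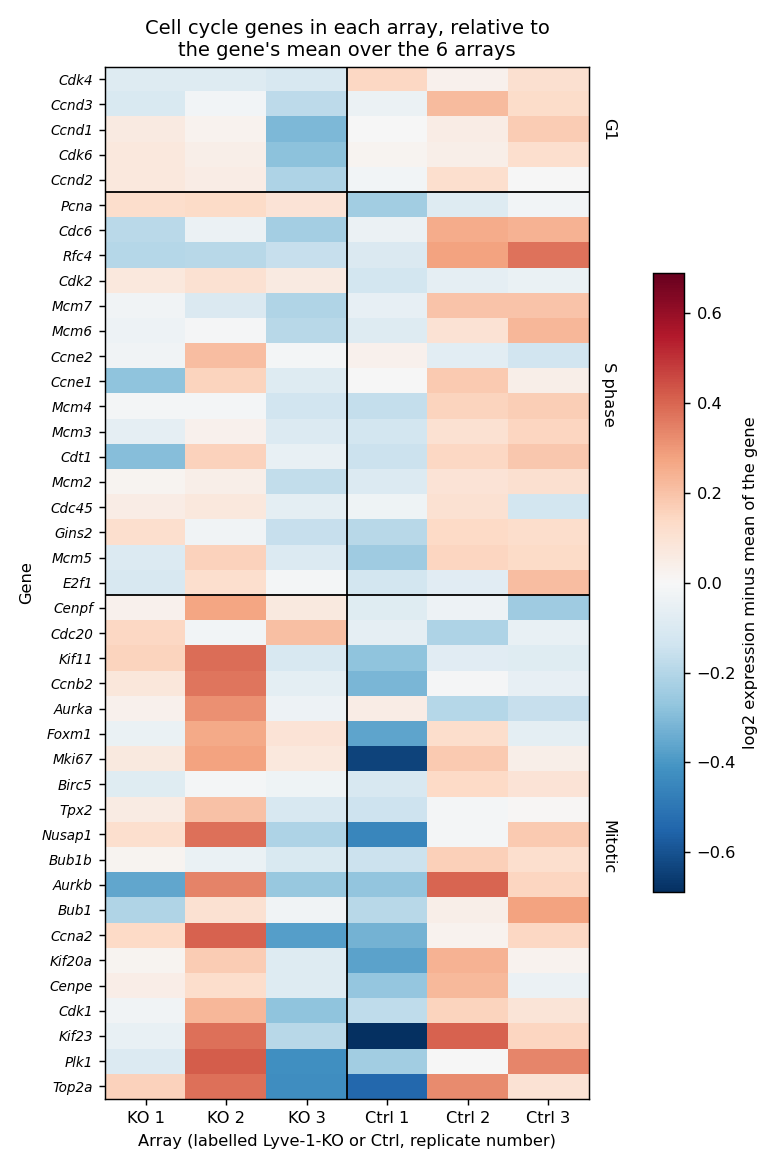
Level of each of the 41 genes on each of the 6 arrays, as the difference in log2 units from the mean of that gene over all arrays. Rows are genes ordered by class, columns are the 3 arrays labelled Lyve-1-KO and then the 3 Ctrl arrays, and the colour of Ctrl 1 is low across most rows.

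Of the 5 G1 genes, all had a difference below 0, with a median of -0.15 against 0.00 for all rows. Cdk4, the kinase that pairs with D-type cyclins, had 10.97, 10.96 and 10.94 on the arrays labelled Lyve-1-KO, against 11.20, 11.08 and 11.17 on the Ctrl arrays. The groups did not overlap, and the difference was -0.19 (SE 0.06, unadjusted p = 0.0162, adjusted p = 0.343 by limma), the lowest adjusted p of the 41 genes. Ccnd3, a D-type cyclin of blood and other tissues, had 9.05, 9.14 and 8.97 against 9.12, 9.37 and 9.28 on the Ctrl arrays, a difference of -0.20 (SE 0.09, adjusted p = 0.452 by limma), with 1 Ctrl array inside the range of the other group. Ccnd1, the D-type cyclin that growth factors induce, had 11.20, 11.16 and 10.83 against 11.13, 11.19 and 11.31 on the Ctrl arrays. Its difference of -0.15 (SE 0.11, adjusted p = 0.661 by limma) came mainly from replicate 3 labelled Lyve-1-KO, the lowest value of the 6. Cdk6, the partner kinase of Cdk4, had 7.35, 7.32 and 7.00 against 7.30, 7.32 and 7.40 on the Ctrl arrays, and Ccnd2 had 11.63, 11.61 and 11.35 against 11.54, 11.67 and 11.55. In both, replicate 3 labelled Lyve-1-KO was again the lowest array and the other arrays interleaved. Their differences were -0.12 and -0.06 (adjusted p = 0.716 and 0.853 by limma).

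Among the 16 S phase genes, 12 differences were below 0 and 4 above, and the differences ran from -0.37 to 0.23 around a median of -0.08. At unadjusted p, 2 were higher and 3 lower (12.5% and 18.8%), against 5.87% and 5.33% of all rows. With the replicate number as a block, 1 was higher and 2 were lower, since Cdk2 and Mcm7 no longer passed (unadjusted p = 0.063 and 0.0845, adjusted p = 0.463 and 0.496 by limma). With the methods' test, 2 were higher and 0 lower. Over all 24479 rows, 2757 passed in either direction with the block and 2473 with the methods' test, against 2741 in the main fit. Pcna, the sliding clamp that holds the polymerase on DNA, had 11.92, 11.93 and 11.89 on the arrays labelled Lyve-1-KO, against 11.56, 11.71 and 11.78 on the Ctrl arrays, a difference of 0.23 (SE 0.07, unadjusted p = 0.0165, adjusted p = 0.345 by limma). The Ctrl arrays spread more, and all lay below. Cdk2, the kinase that fires origins together with E-type cyclins, had 8.55, 8.58 and 8.54 against 8.35, 8.41 and 8.43 on the Ctrl arrays, a difference of 0.16 (SE 0.06, adjusted p = 0.395 by limma), also without overlap.

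The 3 lower genes encode a part of the clamp loader, a helicase loader and a part of the helicase. Rfc4, a subunit of the clamp loader that places Pcna on DNA, had 5.52, 5.52 and 5.56 on the arrays labelled Lyve-1-KO, against 5.62, 5.99 and 6.09 on the Ctrl arrays. Its difference of -0.37 (SE 0.12, adjusted p = 0.370 by limma) was the lowest of the 41 genes, and the groups did not overlap. So the clamp and this subunit of its loader lay on opposite sides of 0. The loader subunits Rfc1, Rfc3, Rfc5 and Rfc2 lay closer to 0 than Rfc4, at 0.0078, 0.03, -0.08 and -0.16 (adjusted p = 0.982, 0.907, 0.744 and 0.683 by limma). Cdc6, which loads the MCM helicase at origins, had 4.22, 4.37 and 4.17 against 4.36, 4.66 and 4.64 on the Ctrl arrays, a difference of -0.30 (SE 0.10, adjusted p = 0.367 by limma), with the highest array of one group and the lowest of the other nearly equal. Its levels lay below the array median of 5.04. Mcm7, a subunit of the helicase, had 7.83, 7.76 and 7.65 against 7.80, 8.05 and 8.05 on the Ctrl arrays, a difference of -0.22 (SE 0.09, unadjusted p = 0.0492, adjusted p = 0.444 by limma), and Ctrl 1 lay within the range of the other group.

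All 6 subunits of the MCM2-7 helicase had differences below 0. Mcm6 had -0.16, Mcm4 -0.11, Mcm3 -0.08, Mcm2 -0.07 and Mcm5 -0.02, after Mcm7, with adjusted p-values by limma between 0.444 and 0.967. For Mcm6, the arrays labelled Lyve-1-KO read 8.66, 8.69 and 8.51, against 8.61, 8.80 and 8.93 on the Ctrl arrays, so these overlapped. In each of the 6, Ctrl 1 was the lowest Ctrl array. Between the arrays of replicate number 1, all 6 were higher on the array labelled Lyve-1-KO. All but Mcm5 were lower on it between those of number 2, and all 6 between those of number 3. The helicase's other partners were close to 0: Cdc45, which joins it in the active replicative helicase, at 0.03, and Gins2, a subunit of the GINS complex in the same assembly, at -0.04. Cdt1, which loads MCM with Cdc6, had -0.12. The E-type cyclins, which drive entry into S phase with Cdk2, lay on either side, with Ccne2 at 0.11 and Ccne1 at -0.14. Cdc45, Gins2, Ccne2 and Ccne1 all had mean levels below the array median of 5.04, as Cdc6 did. E2f1, the activator of this class, read 6.02, 6.25 and 6.12 on the arrays labelled Lyve-1-KO, against 6.01, 6.05 and 6.34 on the Ctrl arrays, a difference of 0.00 with a 95% interval from -0.26 to 0.25.

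**Figure D3:**
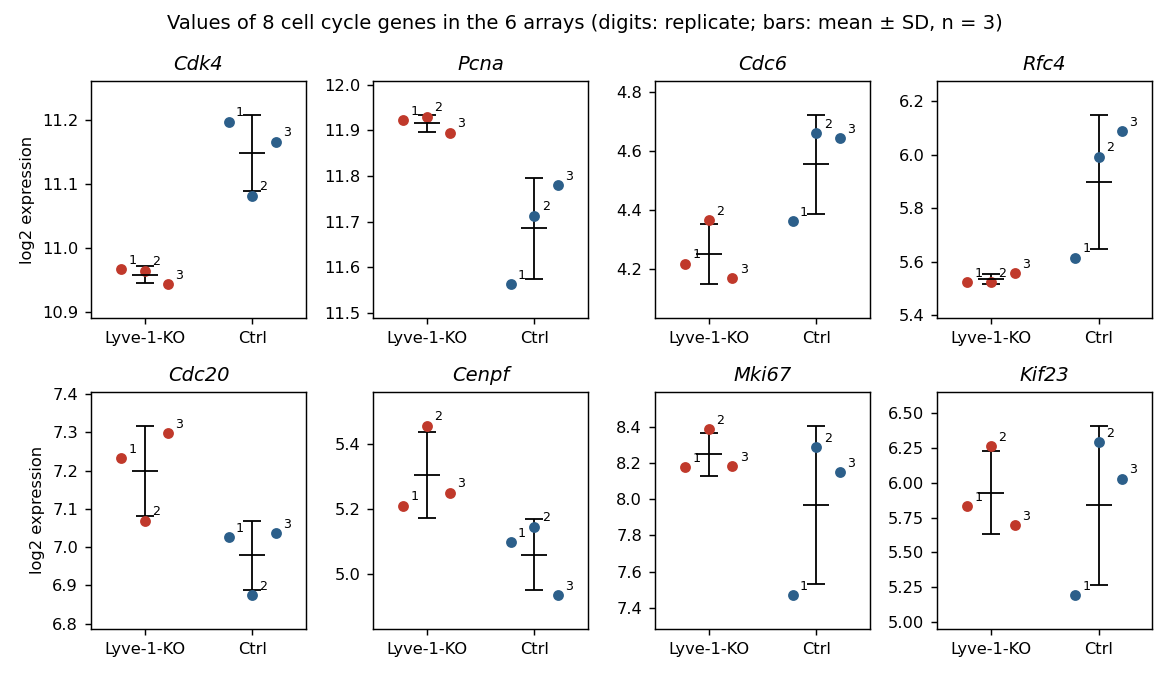
Log2 expression level (vertical axis) of 8 cell cycle genes on the 3 arrays labelled Lyve-1-KO and, to their right, the 3 Ctrl arrays. Digits are replicate numbers and bars the mean ± SD of each group (n = 3), and in Cdk4, Pcna, Rfc4, Cdc20 and Cenpf the groups do not overlap, while in Cdc6, Mki67 and Kif23 they do.

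Of the 20 mitotic genes, 14 had a difference above 0 and 6 below, and the differences ran from -0.18 to 0.29 around a median of 0.09. At unadjusted p, 2 were higher and 0 lower (10% and 0%), against 5.87% and 5.33% of all rows. None was higher with trend and robust settings or with the methods' test, 1 with cyclic loess, and 1 to 3 when 1 array was left out. Over all 24479 rows, 2774, 2473 and 2801 passed in either direction in the first 3 of these fits in turn. When 1 array was left out, 1926 to 2820 did. Cenpf, a kinetochore protein of late G2 and mitosis, had 5.21, 5.46 and 5.25 on the arrays labelled Lyve-1-KO, against 5.10, 5.15 and 4.94 on the Ctrl arrays, a difference of 0.25 (SE 0.09, adjusted p = 0.412 by limma). Cdc20, the activator of the anaphase-promoting complex, had 7.23, 7.07 and 7.30 against 7.03, 6.88 and 7.04 on the Ctrl arrays, a difference of 0.22 (SE 0.08, adjusted p = 0.416 by limma). In both genes the groups did not overlap. In Cdc20 replicate 2 was the lowest array of each group, unlike in most of the class.

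Kif11, the kinesin that pushes spindle poles apart, had 5.71, 5.94 and 5.44 on the arrays labelled Lyve-1-KO, against 5.28, 5.47 and 5.47 on the Ctrl arrays, the highest difference of the 41 genes at 0.29 (SE 0.13, adjusted p = 0.474 by limma). Ccnb2, a B-type cyclin that partners Cdk1, had 6.59, 6.88 and 6.44 against 6.20, 6.50 and 6.45 on the Ctrl arrays, a difference of 0.25 (SE 0.13, adjusted p = 0.526 by limma). Both had replicate 3 labelled Lyve-1-KO among the Ctrl arrays. Aurka, a spindle pole kinase, had 0.20, and Foxm1, the transcription factor of this class, 0.21. Nusap1, a spindle microtubule protein, had 0.19, Ccna2, the cyclin of S and G2 phases, 0.11, and Tpx2, which activates Aurka on the spindle, 0.10. The midzone kinesin Kif20a had 0.07 and the kinetochore kinesin Cenpe 0.05.

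The other 6 lay below 0. Aurkb, the kinase of the chromosomal passenger complex, had -0.18 and its partner Birc5 -0.08. The checkpoint kinase Bub1 had -0.08 and Bub1b, a subunit of the checkpoint complex that holds Cdc20, -0.09. Birc5 and Bub1 had mean levels below the array median of 5.04, and the filter on low values removed both. The mitotic kinases Plk1 and Cdk1 had -0.06 and -0.05. The adjusted p-values of these 6 genes by limma were between 0.742 and 0.945. Cdk1, the kinase that starts mitosis, therefore lay on the other side of 0 from its cyclin partners Ccna2 and Ccnb2, with a 95% interval from -0.39 to 0.30.

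**Figure D4:**
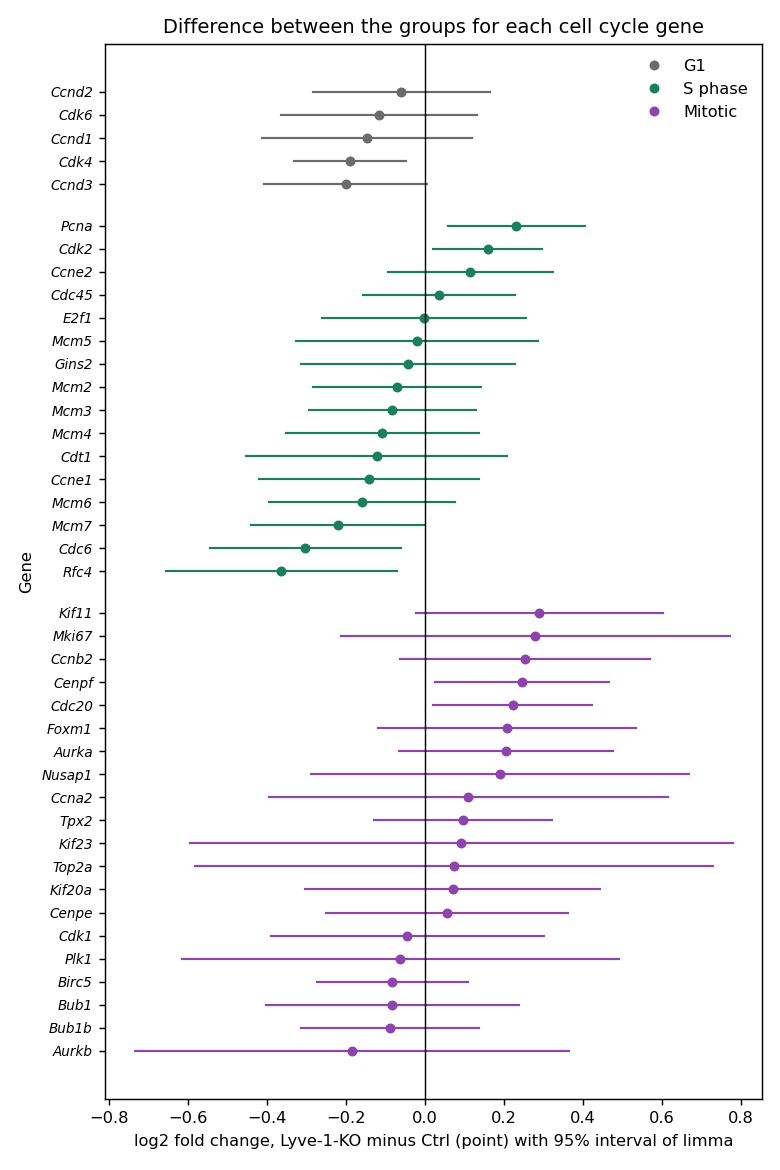
Difference in log2 level, arrays labelled Lyve-1-KO minus Ctrl arrays (horizontal axis), for the 41 genes by class, with 95% intervals of limma. All 5 G1 genes lie below 0, the S phase genes run from -0.37 to 0.23, and the mitotic genes from -0.18 to 0.29.

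The mitotic genes varied more between arrays than the rest. Their median range over the 6 arrays was 0.614, against 0.356 for the S phase genes, 0.398 for the G1 genes and 0.311 for all rows. The variation was shared. Replicate 2 was the highest of the 3 arrays labelled Lyve-1-KO in 18 of 20 mitotic genes and 12 of 16 S phase genes, and in 32.5% of all rows. Ctrl 1 was the lowest Ctrl array in 17 of 20 mitotic, 14 of 16 S phase and 4 of 5 G1 genes, and in 31.7% of all rows. Replicate 3 was the lowest of the arrays labelled Lyve-1-KO in 13 of 20 mitotic, 10 of 16 S phase and 5 of 5 G1 genes, and in 34.4% of all rows.

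Kif23 and Top2a show this pattern. Mki67 shows it except that replicates 1 and 3 labelled Lyve-1-KO were nearly equal, with replicate 1 the lower. These genes were chosen after their values were seen. Kif23, a kinesin of the dividing cell's midbody, had 5.83, 6.26 and 5.69 on the arrays labelled Lyve-1-KO, against 5.19, 6.29 and 6.03 on the Ctrl arrays, a range of 1.10 with a difference of only 0.09 (SE 0.29, adjusted p = 0.938 by limma). Top2a, the topoisomerase that untangles sister chromatids, had 6.96, 7.19 and 6.38 against 6.27, 7.14 and 6.91 on the Ctrl arrays, a difference of 0.07. Mki67, the proliferation marker that coats mitotic chromosomes, had 8.18, 8.39 and 8.18 against 7.47, 8.29 and 8.15 on the Ctrl arrays, a difference of 0.28 (SE 0.21, adjusted p = 0.656 by limma). In all 3 genes Ctrl 1 stood below the other 5 arrays.

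As a mean over the class, the mitotic genes had 6.05, 6.29 and 5.92 on the arrays labelled Lyve-1-KO, against 5.76, 6.13 and 6.09 on the Ctrl arrays. The S phase genes had 7.00, 7.10 and 6.96 against 6.94, 7.15 and 7.17 on the Ctrl arrays, and the G1 genes 10.04, 10.04 and 9.82 against 10.06, 10.13 and 10.14. Without Ctrl 1, the median difference of the mitotic genes was -0.05 rather than 0.09, that of the S phase genes -0.16 and that of the G1 genes -0.17. Mki67 then had 0.03 and Kif23 -0.23. The unadjusted counts became 1 higher and 5 lower among S phase genes and 1 higher and 1 lower among mitotic genes. Over all 24479 rows, 2820 passed in either direction without Ctrl 1, against 2741 with all arrays. Without replicate 2 labelled Lyve-1-KO, the mitotic median was 0.00. Without replicate 3 labelled Lyve-1-KO, the G1 median was -0.03. Ccnd2 was then above 0, at 0.03, and the other G1 genes stayed below. Between arrays of the same replicate number, the median difference of the mitotic genes was 0.26 for number 1, 0.12 for number 2 and -0.12 for number 3. The number of mitotic genes above 0 was 17, 14 and 5 of 20 in turn. The sign of the mitotic median thus depended on single arrays. The genes of these classes with an unadjusted p under 0.05 in the main fit all kept their sign without Ctrl 1. They had been picked by that p from the same arrays. Their values were then 0.24 (Cdc20), 0.26 (Cenpf), 0.17 (Pcna), 0.13 (Cdk2), -0.17 (Cdk4), -0.40 (Cdc6), -0.31 (Mcm7) and -0.51 (Rfc4, adjusted p = 0.236 by limma).

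Markers of other cells varied between the same arrays. Over 13 hepatocyte markers, Ctrl 1 was the lowest Ctrl array in 11 and replicate 2 the highest labelled Lyve-1-KO in 12, and their mean was 7.84, 8.88 and 7.80 on the arrays labelled Lyve-1-KO, against 7.62, 8.85 and 8.12 on the Ctrl arrays. Over 13 macrophage markers the mean was 8.89, 9.58 and 9.90 against 7.82, 9.79 and 9.12 on the Ctrl arrays, with Ctrl 1 lowest in 12. Over 9 B and plasma cell markers it was 6.00, 5.66 and 5.44 against 5.64, 6.29 and 6.22 on the Ctrl arrays, and over 12 T and NK cell markers 5.94, 5.46 and 5.77 against 5.24, 5.49 and 5.93. Unlike in the hepatocyte markers, replicate 2 was the highest labelled Lyve-1-KO in only 1 of the 13 macrophage markers. The same held for 0 of the 9 B and plasma cell and 0 of the 12 T and NK cell markers. Between the groups, all 13 macrophage markers had a difference above 0 (median 0.44). At unadjusted p, 1 was higher and 0 lower (7.69% and 0%). Of the 9 B and plasma cell markers, 1 lay above 0 and 8 below (median -0.36), with 0 higher and 2 lower (0% and 22.2%). Of the 13 hepatocyte markers, 8 lay above 0 and 5 below, with 0 higher and 0 lower. Over all rows, 5.87% were higher and 5.33% lower. Over 12 stellate cell and fibroblast markers, replicate 2 was the highest labelled Lyve-1-KO in 8 and Ctrl 1 the lowest Ctrl array in 7. Over 6 cholangiocyte markers the order differed, with means of 5.29, 5.74 and 5.53 on the arrays labelled Lyve-1-KO, against 5.93, 5.42 and 5.79 on the Ctrl arrays, and Ctrl 1 was lowest in 0 of 6. Over 10 neutrophil and progenitor markers, Ctrl 1 was the lowest Ctrl array in 3 and replicate 2 the highest labelled Lyve-1-KO in 1. These counts were 6 and 1 over 10 dendritic cell and monocyte markers, and 5 and 3 over 8 erythroid markers. The mean of the LSEC markers, in contrast, stayed between 12.59 and 12.64, where the highest array value was 13.87. In 1 of the 20 LSEC markers all arrays labelled Lyve-1-KO lay above all Ctrl arrays, against 8.71% of all rows. In 3 all lay below, against 8.73%. The 1 above was Il1a at 0.35 (adjusted p = 0.21 by limma). Those below were Cd209b at -0.35, Ntn4 at -0.22 and Gata4 at -0.10 (adjusted p = 0.269, 0.378 and 0.574 by limma). At unadjusted p, 1 of the 20 was higher and 2 lower (5% and 10%), against 5.87% and 5.33% of all rows. None of the 13 hepatocyte or 13 macrophage markers had a mean below the array median. Among the neutrophil and progenitor markers 7 of 10 did, and among the erythroid markers 6 of 8. So did 4 of the 12 T and NK cell, 3 of the 9 B and plasma cell and 3 of the 10 dendritic cell and monocyte markers. The counts were 2 of 6 for cholangiocyte and 0 of 12 for stellate cell and fibroblast markers. The part of these cells in the cell cycle values was not tested.

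**Figure D5:**
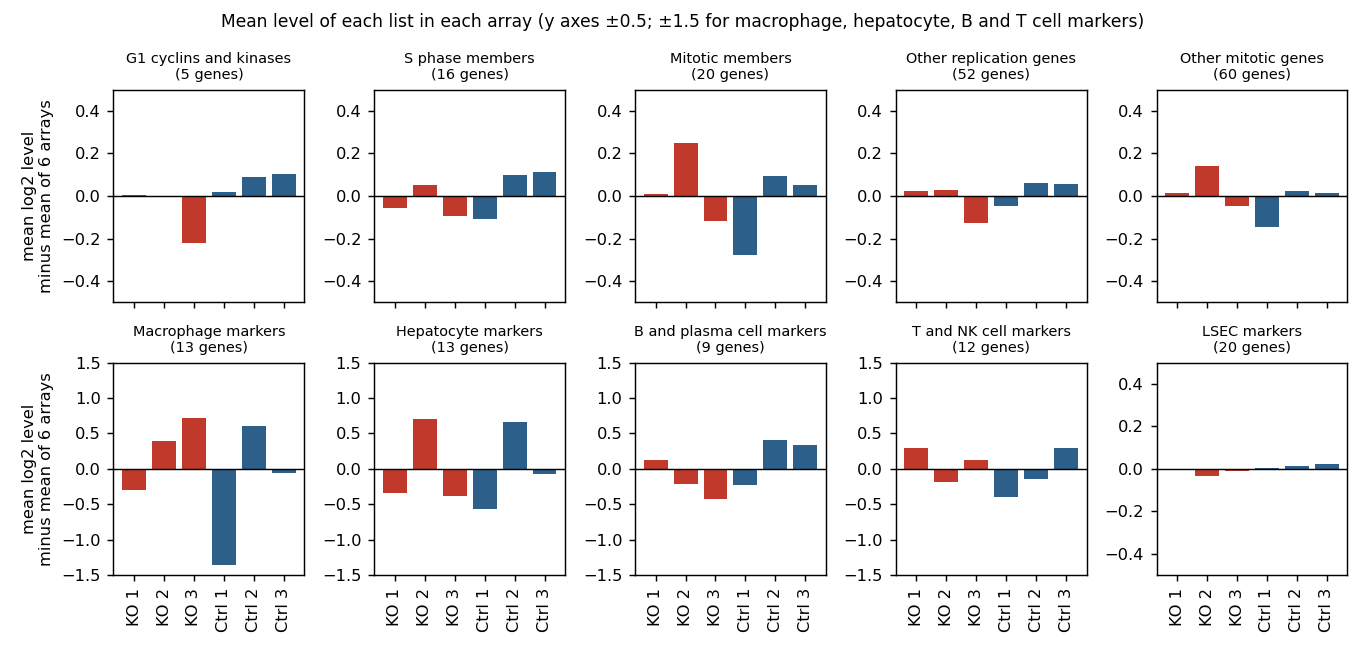
Mean log2 level of the cell cycle classes and of cell type markers on each array, as the difference from the mean of that list over the 6 arrays, with the arrays labelled Lyve-1-KO left of the Ctrl arrays and a wider vertical scale for markers of other cell types. Ctrl 1 is low in the mitotic, macrophage and hepatocyte lists (5.76, 7.82 and 7.62), while the LSEC markers stay between 12.59 and 12.64.

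Other genes of these pathways were read from lists chosen by role, with earlier results of these data known. Their shares are therefore described and not tested. Of 60 further mitotic genes, all measured, 8 were higher and 3 lower at unadjusted p (13.3% and 5%), against 5.87% and 5.33% of all rows, with a median of 0.07, and none passed the adjusted threshold. The 8 became 5 of 51 after the filter on low values and 5 to 10 when 1 array was left out. Over all rows, 1928 of 14687 passed in either direction after this filter, and 1926 to 2820 of 24479 when 1 array was left out. Ckap2l, a spindle protein, had 6.29, 6.94 and 7.17 on the arrays labelled Lyve-1-KO, against 4.89, 5.51 and 5.90 on the Ctrl arrays, a difference of 1.36 (SE 0.31, adjusted p = 0.239 by limma) and of 1.09 without Ctrl 1. The groups did not overlap, and no other gene of the cell cycle lists was as far from 0. Cdca3, a trigger of mitotic entry, had 6.05, 6.10 and 5.89 against 5.63, 5.77 and 5.58 on the Ctrl arrays, a difference of 0.35 (SE 0.08, adjusted p = 0.263 by limma). Pttg1, the securin that holds sister chromatids together until anaphase, and Cenpa, the histone of the centromere, both had 0.30 (adjusted p = 0.294 and 0.299 by limma). In each of these 3 genes, all arrays labelled Lyve-1-KO lay above all Ctrl arrays. Of these 60 genes, 10 had that order, against 8.71% of all rows, and 1 had the opposite order, against 8.73%. That gene was Cdc25b, a phosphatase that activates Cdk1, at -0.39. The median without Ctrl 1 was -0.01. The CHR element was in 68% of their promoters that were available, close to the share in the mitotic class above.

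Of 54 further replication genes, 52 were measured, with 3 higher and 4 lower at unadjusted p (5.77% and 7.69%, against 5.87% and 5.33% of all rows) and a median of -0.03. Rpa1, which coats single-stranded DNA, had 9.45, 9.44 and 9.24 on the arrays labelled Lyve-1-KO, against 9.94, 9.61 and 9.97 on the Ctrl arrays, a difference of -0.47 (SE 0.12, adjusted p = 0.265 by limma) without overlap. Gmnn, the inhibitor of Cdt1, had -0.31, the helicase Blm 0.31, and Timeless, a protein of the replication fork, 0.18 (adjusted p = 0.358, 0.307 and 0.364 by limma). Of 19 genes of the Rb, E2F and DREAM group, 1 was higher and 1 lower (5.26% each), or 0 and 1 with the replicate number as a block. These were E2f7, a repressor of E2F targets, at 0.18, and E2f6, another repressor of the family, at -0.42 (adjusted p = 0.367 and 0.329 by limma). Mybl2, which activates mitotic genes with MuvB, had 0.24, Lin9, a MuvB subunit, -0.19, and Rb1, the retinoblastoma gene, 0.11 (adjusted p = 0.655 by limma).

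Of 25 CDK inhibitors, CDK activators and other brakes on proliferation, 6 were higher and 3 lower at unadjusted p (24% and 12%), against 5.87% and 5.33% of all rows, with a median of 0.10. The 6 higher genes were Btg1, Tob1, Cdkn1a, Btg2, Gadd45a and Gadd45g, with Cdkn1a the only CDK inhibitor among them. The inhibitors Cdkn1b, Cdkn1c and Cdkn2d had 0.08, 0.18 and 0.08, and Cdkn2a, Cdkn2b and Cdkn2c had -0.16, -0.00065 and -0.09. Adjusted p-values of these inhibitors by limma were between 0.579 and 0.998. When 1 array was left out, 4 to 7 of the 25 were higher and 1 to 4 lower, where 1926 to 2820 of all 24479 rows passed in either direction. This list, too, was chosen with earlier results of these data known, so its shares are described and not tested. Cdkn1a, the p53 target that inhibits CDKs and binds Pcna, had 10.91, 11.19 and 11.34 on the arrays labelled Lyve-1-KO, against 10.04, 10.58 and 10.46 on the Ctrl arrays, a difference of 0.78 (SE 0.17, adjusted p = 0.227 by limma) and of 0.62 without Ctrl 1. The groups did not overlap. Btg1, Tob1 and Btg2 belong to the antiproliferative BTG/TOB family. Btg1 had 9.61, 9.63 and 9.79 on the arrays labelled Lyve-1-KO, against 9.13, 9.07 and 9.35 on the Ctrl arrays, a difference of 0.49 (SE 0.10, adjusted p = 0.209 by limma). Tob1 had 8.39, 8.53 and 8.29 against 7.89, 7.78 and 8.06 on the Ctrl arrays, a difference of 0.50, and Btg2 had 11.09, 11.17 and 11.31 against 10.38, 10.72 and 10.91, a difference of 0.52 (adjusted p = 0.209 and 0.285 by limma). In these 3 genes, too, the groups did not overlap. In 8 of the 25 genes all arrays labelled Lyve-1-KO lay above all Ctrl arrays, against 8.71% of all rows, and in 3 all lay below, against 8.73%. The 3 were Ccnh, a subunit of the kinase that activates CDKs, at -0.36, Fzr1, an activator of the anaphase-promoting complex in G1, at -0.23, and Cdc25a, a phosphatase that activates CDKs, at -0.20.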

How the data were processed

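Arrays measured RNA of LSECs, 3 for Lyve-1-KO and 3 for Ctrl, each from cells pooled from 3 mice. The authors used a custom chip definition file (version 18) that assigns probes to Entrez genes, normalized by quantiles, and deposited log2 levels with 1 value per row in each array. The submitters' processing notes list RMA, whose version is not given in the sources used here. Quantile normalization gives all arrays 1 distribution, so a shift of all genes together would not be seen. Of 24479 rows, 23281 carried 1 symbol and 1198 were unnamed. No depth applies to arrays, and their number limits the precision.

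Groups were compared with limma 3.58.1 (lmFit and eBayes, R 4.3.3) on unfiltered rows. P-values were adjusted by Benjamini-Hochberg over every row at a threshold of 0.05, and the script was tested on simulated data. Arrays of the same replicate number deviated together from their group means (r = 0.206, 0.134 and 0.124; other pairs -0.218 to 0.0432), so a fit with the replicate number as a block was run. All measured genes of the 3 classes are accounted for, with values per array for those with an unadjusted p under 0.05 and the 4 smallest p in each class. From each other list of cell cycle genes the 4 genes with the smallest p and some others are named, and Cdkn1a, Rb1 and Lyve1. Alternatives were the block, cyclic loess, centring on LSEC markers, a filter on low values, trend and robust settings, array weights, the methods' test per gene, and leaving out each array. The genes and lists were chosen with earlier results of these data known. Columns of other samples left out numbered 0. Promoters came from RefSeq.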

Additional observations from a re-analysis of the deposited data

How the results depend on the processing

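With 3 arrays per group, none of the 41 cell cycle genes passed an adjusted p of 0.05 in any fit run, and the count over all genes was 1. That count was 0 with the replicate block, 2 with centring on the LSEC markers, 49 with trend and robust settings, 0 with the methods' test, and 0 to 2 when 1 array was left out. At unadjusted p, the replicate block took Cdk2 and Mcm7 out of the S phase counts, which became 1 higher and 2 lower instead of 2 and 3, and brought in Foxm1 among the mitotic genes (3 higher instead of 2) and Ccnd3 among the G1 genes; it changed no other call of these 41 genes. Of 59 genes followed through all alternatives, 46 kept their direction. With centring on the LSEC markers, E2f1 was 0.025 and Mcm5 0.0073, and with array weights Kif23 was -0.0055. Leaving out 1 array in turn changed the sign of 13 genes: Ccnd2 (-0.11 to 0.031), E2f1 (-0.067 to 0.10), Cdc45 (-0.019 to 0.094), Gins2 (-0.15 to 0.024), Mcm5 (-0.15 to 0.047), Top2a (-0.18 to 0.31), Ccna2 (-0.067 to 0.32), Cdk1 (-0.17 to 0.081), Plk1 (-0.29 to 0.13), Bub1 (-0.20 to 0.033), Kif20a (-0.097 to 0.21), Kif23 (-0.23 to 0.32) and Cenpe (-0.065 to 0.18), whose cause was not tested. The same step moved the median of the G1 genes between -0.19 and -0.032, of the S phase genes between -0.16 and -0.031 and of the mitotic genes between -0.046 and 0.19. Within replicate pairs, an alternative chosen after seeing the data, the G1 median was 0.053, -0.062 and -0.31 in pairs 1, 2 and 3, the S phase median 0.061, -0.044 and -0.24, and the mitotic median 0.26, 0.12 and -0.12. At unadjusted p, 0 S phase genes were lower with the methods' test, against 3, and 0 to 5 when 1 array was left out. The 2 higher mitotic genes became 0 with trend and robust settings and with the methods' test, and 1 to 3 when 1 array was left out. Over all 24479 rows, 2741 passed in either direction in the main fit and 2757 with the replicate block. There were 2774 with trend and robust settings, 2473 with the methods' test, and 1926 to 2820 when 1 array was left out.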
